A study of Mus musculus with 36 samples.

Results

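The replication-dependent histone genes are the clustered gene copies that code for the linker histone H1 and the core histones H2A, H2B, H3 and H4. They were taken from a deposited expression table of mouse heart as every symbol beginning with Hist1h, Hist2h, Hist3h or Hist4h, with 1 entry per symbol. This gave 70 of 32750 symbols, and the 34 that reached an FPKM of 1 in 2 or more of the 36 libraries are described here. FPKM is a level scaled to transcript length and library size. Shared sequence, long gene models and unknown RNA selection, described below, limit how levels of different histone genes compare. The study followed the heart of CD-1 mice from birth to adulthood, after surgical resection of the ventricle, and in cultured adult heart muscle cells. Groups of 3 libraries were isolated cardiomyocytes at postnatal day 0 (P0), at P4, and at day 7 after sham surgery or after resection. Groups of 2 libraries were ventricular myocardium at P0, P4 and P7 and in the adult, and ventricular myocardium at day 1 and day 7 after sham surgery or resection. The other groups of 2 libraries were adult cardiomyocytes dissociated and explanted for 0, 24, 48 or 72 h.

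The labels name the cell type as cardiomyocytes for the ventricular tissue too, although tissue holds other cells. They do not say that replicates came from separate animals or cultures, so p-values measure only the spread between these libraries, which may be technical. The labels give either an earlier published library protocol or a TruSeq kit, run on a GA-2 or a Hi-Seq, and do not tie a library to either; whether polyadenylated RNA was selected is not given in the sources used here. In bulk RNA, fewer cells of a type and less RNA per cell cannot be told apart. The depth of the libraries is unknown, since the table holds no counts.

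Replication-dependent histone mRNAs are made mainly in S phase, when newly copied DNA must be packed into nucleosomes. NPAT drives their transcription at histone locus bodies. Their mRNAs normally end in a conserved stem-loop bound by SLBP in place of a poly(A) tail, and some of the genes can also give polyadenylated transcripts in cells that have left the cycle. H2A, H2B, H3 and H4 form the nucleosome core, and H1 binds the linker DNA between nucleosomes. Cardiomyocytes in mice leave the cell cycle soon after birth.

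The 3' ends are shown first because the end of a histone mRNA bears on whether a poly(A)-based protocol would capture it. The pattern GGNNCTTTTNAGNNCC was searched on the transcript strand in GENCODE M21 transcripts, matched to all 70 members, 69 by symbol and 1 by gene ID. It stood in at least 1 annotated transcript of 44 of the 70 members and of 25 of the 34 described members, and in 89 of 55450 annotated genes (0.161%). In each line the stem-loop is in capitals, 5' to 3', with the 5 bases on either side in lower case.
Hist1h1c: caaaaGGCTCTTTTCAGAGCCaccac
Hist2h2aa2: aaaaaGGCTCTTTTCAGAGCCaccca
Hist3h2a: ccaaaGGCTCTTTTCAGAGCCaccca
Hist1h2ao: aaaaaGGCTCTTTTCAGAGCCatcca
Hist2h2ac: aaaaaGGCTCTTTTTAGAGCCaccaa
Hist1h2bk: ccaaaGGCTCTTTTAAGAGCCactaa
Hist1h4h: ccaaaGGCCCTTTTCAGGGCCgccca
Hist1h4i: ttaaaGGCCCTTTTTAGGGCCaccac

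Hist1h1c, Hist2h2aa2, Hist3h2a and Hist1h2ao share the same 16 letters, whereas the 2 H4 genes have other stem letters and Hist2h2ac and Hist1h2bk differ in the loop. How far the annotated transcript ran past the stem-loop differed. It ended 35 bases after it for Hist2h2aa2, 46 for Hist1h4h, 31 for Hist1h2ao, 57 for Hist2h2ac and 30 for Hist1h2bk. The annotated transcripts of Hist1h1c and Hist3h2a went on for 840 and 1643 bases, and that of Hist1h4i for 330. The pattern was not in the annotated transcripts of Hist1h2bc, Hist1h2al, Hist1h2ba, Hist2h2be, Hist2h2bb and Hist2h3b, which says only that these letters are not in those models.

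Promoters are shown for 5 members that differed between groups. They run from 250 bases before to 50 after the RefSeq start site on GRCm38.p6, 5' to 3' on the gene's strand, with CCAAT and ATTTGCAT (the octamer) in capitals on either strand (CCAAT on the other strand reads ATTGG). The windows are chr13:23738557-23738856 (+) for Hist1h1c, chr3:96240325-96240624 (-) for Hist2h2aa2, chr13:21810117-21810416 (+) for Hist1h2ao, chr3:96269450-96269749 (+) for Hist2h2bb and chr13:23530794-23531093 (+) for Hist1h4h.
Hist1h1c: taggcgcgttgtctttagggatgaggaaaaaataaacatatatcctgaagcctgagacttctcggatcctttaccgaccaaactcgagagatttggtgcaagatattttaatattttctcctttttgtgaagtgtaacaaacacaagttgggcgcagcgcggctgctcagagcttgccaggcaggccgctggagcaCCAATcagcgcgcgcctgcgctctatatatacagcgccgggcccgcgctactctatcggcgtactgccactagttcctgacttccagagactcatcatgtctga
Hist2h2aa2: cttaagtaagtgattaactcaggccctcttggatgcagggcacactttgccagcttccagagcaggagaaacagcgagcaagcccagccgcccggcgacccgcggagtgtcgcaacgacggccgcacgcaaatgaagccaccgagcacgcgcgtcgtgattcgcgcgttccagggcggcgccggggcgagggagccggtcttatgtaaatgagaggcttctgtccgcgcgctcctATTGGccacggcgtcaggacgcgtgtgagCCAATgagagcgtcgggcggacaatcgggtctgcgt
Hist1h2ao: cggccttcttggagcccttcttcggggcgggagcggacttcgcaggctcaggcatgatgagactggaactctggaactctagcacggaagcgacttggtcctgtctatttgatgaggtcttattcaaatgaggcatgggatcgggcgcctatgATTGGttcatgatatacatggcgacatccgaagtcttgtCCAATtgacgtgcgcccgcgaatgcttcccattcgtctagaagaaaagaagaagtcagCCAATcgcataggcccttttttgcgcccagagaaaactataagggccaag
Hist2h2bb: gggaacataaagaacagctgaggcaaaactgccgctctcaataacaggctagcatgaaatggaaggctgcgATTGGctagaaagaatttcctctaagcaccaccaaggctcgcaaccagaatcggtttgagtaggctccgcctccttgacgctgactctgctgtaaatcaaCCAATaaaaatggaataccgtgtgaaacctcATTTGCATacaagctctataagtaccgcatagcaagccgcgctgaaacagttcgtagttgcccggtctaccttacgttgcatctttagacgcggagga
Hist1h4h: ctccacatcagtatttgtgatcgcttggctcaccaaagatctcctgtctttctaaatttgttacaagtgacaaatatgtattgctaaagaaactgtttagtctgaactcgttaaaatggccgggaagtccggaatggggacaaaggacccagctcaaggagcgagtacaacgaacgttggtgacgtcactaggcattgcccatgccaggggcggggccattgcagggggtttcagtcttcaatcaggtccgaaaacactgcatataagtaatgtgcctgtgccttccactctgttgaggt

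Of the 70 members, 61 had a RefSeq promoter of this length, 30 of them among those described. CCAAT, searched on both strands, stood in 85.2% of the 61 and in 83.3% of the 30, against 37.9% of all 27025 promoters. It was in every matched promoter of the H1, H2A, H2B and H3 classes and in 3 of 12 H4 promoters. ATTTGCAT was in 21.3% of the 61 and 26.7% of the 30, against 1.75% of all promoters, and its matches were in 7 of 17 H2A and 6 of 16 H2B promoters and in none of the other classes. TATAAA was in 57.4% of the 61 and 43.3% of the 30, against 14.2% of all. Hist1h1c, Hist2h2aa2 and Hist1h2ao, which differed in their courses below, each held CCAAT and neither other motif, and Hist1h4h held none of the 3. A match is a description of these windows and not evidence of binding.

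Many members are near copies of each other, which bears on every value. The share of a member's 50-base words that also occur in another annotated gene had a median of 47.8% over the 34 described members, was above 90% in 4 and below 10% in 4. For Hist2h2aa2 it was 100%, for Hist1h2ao 93.5% and for Hist2h2be 0%. Hist1h2ao and Hist1h2ap had equal FPKM in 35 of 36 libraries, with the largest difference 0.214 FPKM in ventricle P4 replicate 2. They are treated as 1 signal below although each counts as a member. Hist2h2aa1, a copy of Hist2h2aa2, reached 0.0427 FPKM at most. How reads were divided between such copies was not tested, and the levels of single copies are uncertain. The span given for Hist1h2bc, 8291 bases at 13:23776067-23784357 on mm9, and that of Hist1h2be, 37384 bases, are much longer than a histone coding region. The files give several Hist2 entries a gene ID that belongs to another gene in GENCODE M21, Hist2h2aa2, Hist2h2bb and Hist2h3c1 among them, and the symbols of the files are used here.

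The described members were 3 of 6 H1 genes, 9 of 20 H2A, 12 of 19 H2B, 4 of 12 H3 and 6 of 13 H4 genes. By cluster they were 25 of 56 Hist1 genes, 7 of 10 Hist2, 1 of 3 Hist3 genes and the only Hist4 gene. The 3 members just inside the limit, with 2 libraries at 1 FPKM or more, were Hist1h1d, Hist1h2bb and Hist4h4. The 6 just outside it, with 1 such library, were Hist1h2ad, Hist1h2bf, Hist1h3e, Hist1h4d, Hist2h4 and Hist3h2ba, whose highest values lay between 1.04 and 1.57 FPKM. The other 30 stayed at or below 0.943 FPKM in every library, and Hist1h2bq was listed at 0 in all 36.

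Few genes carried most of the signal. Mean FPKM over all 36 libraries was 36.6 for Hist1h2bc, an H2B gene, and 36.3 for Hist1h1c, a linker histone gene on 13:23830675-23832235. Next came the H2A gene Hist2h2aa2 at 15.0 (3:96043638-96044216) and the H4 gene Hist1h4h at 10.3 (13:23622918-23623388). The H2A genes Hist1h2al and Hist3h2a followed at 8.41 and 7.503. The highest H3 gene, Hist2h3c1, reached a mean of 1.03. Hist1h1c and Hist1h2bc together made up 33.8 to 51.8% of the summed FPKM of the 70 members in isolated cells, 34.7 to 66.4% in explants, 23.0 to 46.6% in unoperated ventricle and 48.5 to 74.7% in the operated ventricle libraries. By group mean, 15 of the 34 members were highest in explants at 48 h and 11 in explants at 24 h. The members with their highest mean outside the explants were Hist3h2a and Hist1h2af at ventricle P0, Hist1h2ao and Hist1h2ap at ventricle P4, Hist2h2be in day 1 sham ventricle and Hist1h2ag in day 7 resected ventricle.

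**Figure D1:**
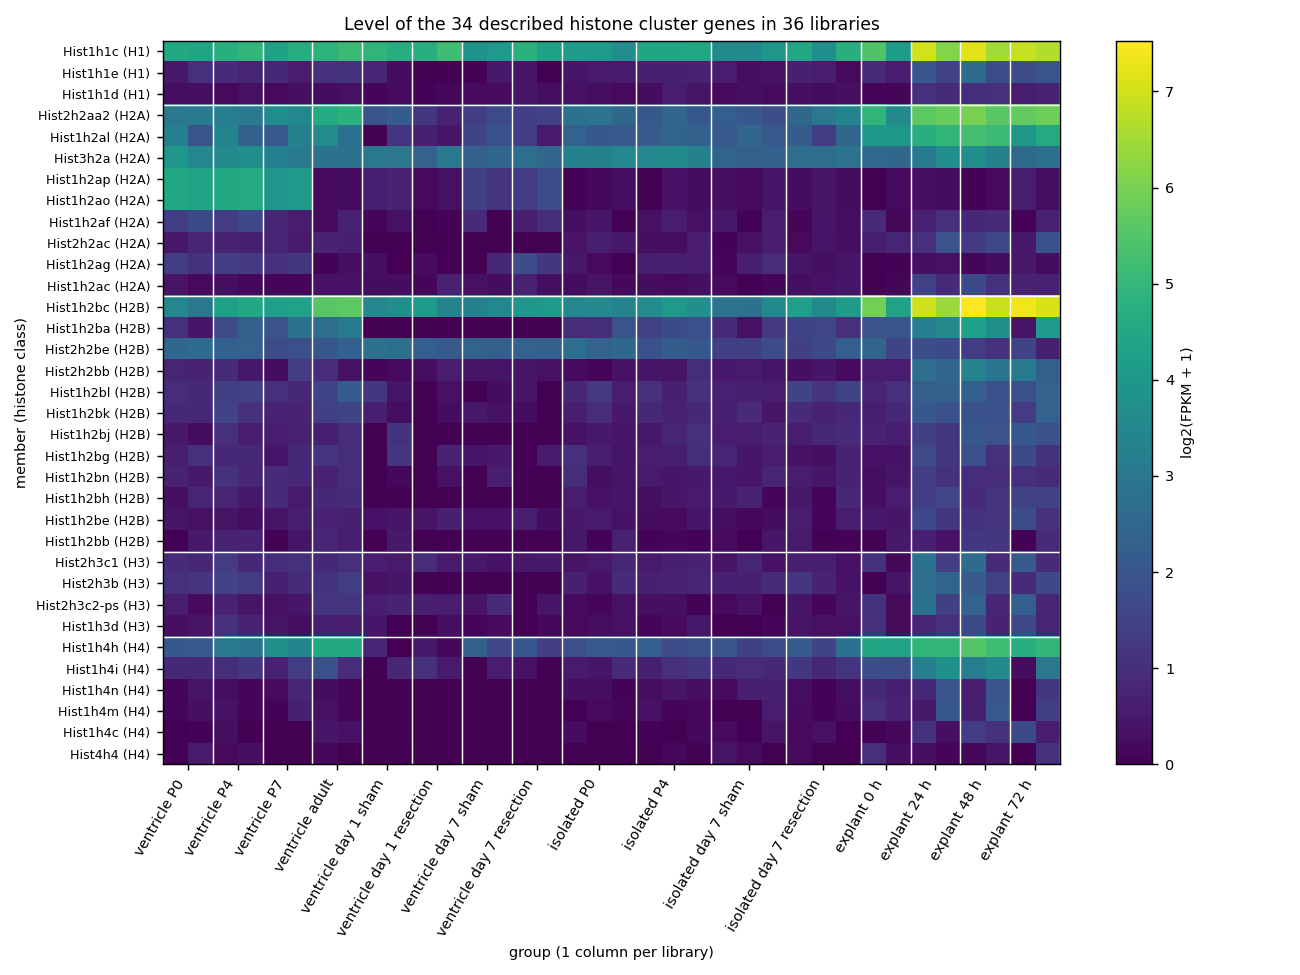
Each cell is the log2(FPKM + 1) of 1 of the 34 described histone members (vertical axis, by class) in 1 of the 36 libraries (horizontal axis, by group). Hist1h2bc and Hist1h1c are high throughout and highest in the explants, Hist1h2ao and Hist1h2ap stand out at ventricle P0, P4 and P7, and many members are near 0 in the operated ventricle.

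The summed FPKM of the 70 members was 128 ± 13.0 (SD, n = 2) in ventricle at P0, 161 ± 1.496 at P4, 131 ± 11.7 at P7 and 174 ± 4.62 in the adult. It was lower in the operated ventricle, at 64.7 ± 0.584 and 59.9 ± 5.30 for day 1 sham and resection and 48.6 ± 3.95 and 63.4 ± 7.74 for day 7 sham and resection (n = 2 each). In isolated cells it was 66.1 ± 3.45 at P0, 74.5 ± 5.40 at P4, 49.7 ± 7.30 in sham and 74.2 ± 15.6 after resection (n = 3 each). In explants it went from 151 ± 66.5 at 0 h, where the libraries gave 198 and 104, to 398 ± 63.7 at 24 h, 495 ± 121 at 48 h and 420 ± 4.48 at 72 h. Between 25 and 46 of the 70 members were listed at 0 in each operated ventricle library, against 5 to 13 in unoperated ventricle, 7 to 11 in isolated cells and 5 to 18 in explants. The share of all symbols listed at 0 was 36.4 to 43.6% in operated and 36.6 to 41.1% in unoperated ventricle, so the gap in histone members had no like gap over all genes. Hist1h2ba lay between 0.362 and 7.17 FPKM in unoperated ventricle and did not exceed 0.0119 in the 8 operated libraries. Since library protocols are not tied to libraries, age, surgery and protocol cannot be told apart here, and unoperated and operated ventricle were not tested against each other.

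The gene models at 1 FPKM or more numbered 10454 to 13134 per library. Explant replicate 1 at 0 h and at 72 h stood apart, with 52.3 and 53.0% of symbols and 17 to 18 members listed at 0. Markers of cardiomyocytes summed to at least 6695 FPKM in every library but those of the 72 h explants, which are described below. Genes of red blood cells summed to 376 to 72171 FPKM in the isolated cells, and macrophage genes to 1.61 to 43.7. Genes of other cells were thus detected in the isolated preparation.

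**Figure D2:**
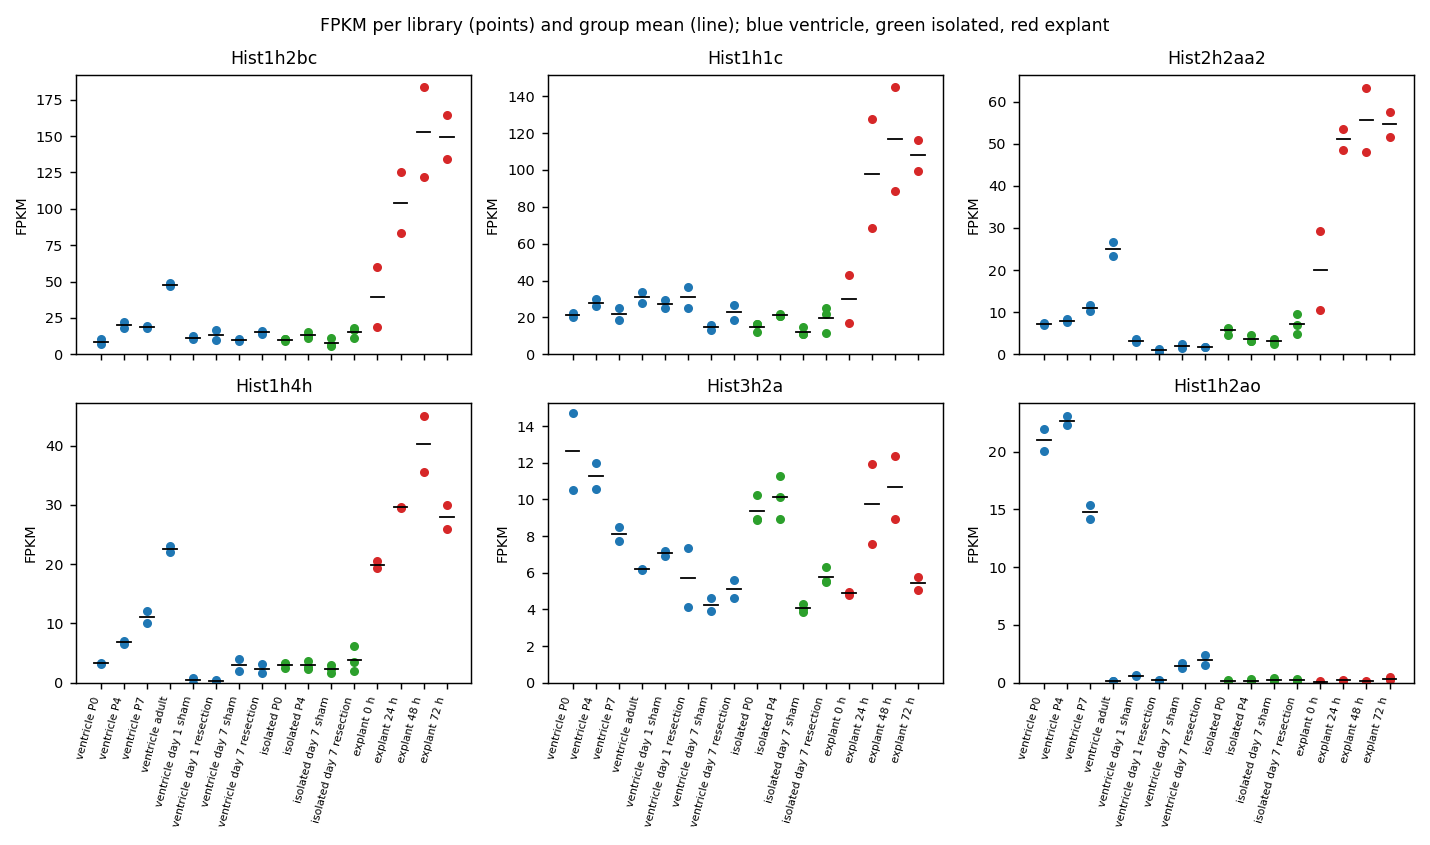
FPKM of 6 histone members in each of the 16 groups; points are libraries and bars are group means, on axes that start at 0. Hist1h2bc, Hist1h1c and Hist2h2aa2 are highest in the explants from 24 h on, and Hist1h2ao is above 10 FPKM in ventricle at P0, P4 and P7 alone.

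The first comparison followed the unoperated ventricle from P0 to the adult, the interval in which the mouse heart loses its power to regenerate. All ages were compared with the same P0 libraries. By P4, 2 of 21 tested members were higher than at P0 and none lower (limma, Benjamini-Hochberg adjusted p under 0.05), against a background of 0.592% of 14201 genes higher and 0.761% lower. They were Hist1h2bc and the testis-type H2B gene Hist1h2ba. Hist1h2bc was at 10.5 and 7.01 FPKM at P0 and at 18.4 and 22.03 at P4, with no overlap, a log2(FPKM + 1) change of 1.14 (SE 0.22, adjusted p = 0.0284). The 2 ages did not overlap in 13 of the 21 members, against 45.8% of all tested genes. Hist1h2ba was at 1.04 and 0.362 at P0 and at 2.29 and 3.82 at P4, a change of 1.25 (SE 0.28, adjusted p = 0.0486). Both calls depended on single libraries, since leaving out P0 replicate 2 or either P4 library removed them. The number of all genes called also moved when 1 library was left out.

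By P7, 3 members were higher and 1 lower than at P0, against 4.38% of all genes higher and 8.28% lower. Hist1h4h, an H4 gene, was at 3.22 and 3.30 FPKM at P0, at 7.02 and 6.58 at P4 and at 12.1 and 10.03 at P7, a log2 change of 1.495 from P0 to P7 (SE 0.29, adjusted p = 0.00492). Hist1h2bc was at 17.9 and 19.2 at P7, a change of 1.03 (adjusted p = 0.0107), and Hist1h2ba at 2.76 and 6.11, a change of 1.63 (adjusted p = 0.00252). The H2B gene Hist2h2be went the other way, from 4.59 and 5.15 at P0 to 2.35 and 2.59 at P7, a change of -0.76 (SE 0.13, adjusted p = 0.00291). None of these 4 overlapped between the ages, which held for 13 of the 21 members in all and for 62.1% of all tested genes. With the 8 unoperated libraries fitted alone, a setting chosen after seeing the data, 4 of 20 tested members were higher and 5 lower. The shares of all genes also rose in that fit, to 6.03% higher and 13.7% lower.

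The adult ventricle differed most from P0, and its members moved in both directions. Of the 21 tested members, 7 were higher and 6 lower, 61.9% in all, against 13.4% of all genes higher and 43.8% lower, 57.2% in all. The share of members called was near that of all genes, and higher and lower members were about equal in number. The median log2 change was 0.44 over the members and -0.36 over all tested genes. With median-of-ratios scaling, which set the median of all genes to 0.00, 8 members were higher and 5 lower against 26.2 and 22.7% of all genes. With quantile normalization 12 were higher and 5 lower, against 23.6 and 25.2%. With a pseudocount of 0.1 the split was 5 higher and 6 lower, against 12.7 and 42.7% of all genes. Without a filter on low values 70 members were tested, of which 8 were higher and 10 lower, against 5.51 and 18% of all genes. The 2 age groups did not overlap in 17 of the 21 members, near the 80.3% of all tested genes. Of the 21 members, 6 were under 1 FPKM in both P0 libraries, so these counts only describe the members tested.

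The members higher in the adult came from several classes. Hist1h2bc rose to 46.9 and 48.7 FPKM from 10.5 and 7.01, a log2 change of 2.35 (SE 0.22, adjusted p = 2.97e-06), or 2.71 relative to the median of all genes. Hist1h4h rose to 23.0 and 22.1 from 3.22 and 3.30, a change of 2.47 (SE 0.29, adjusted p = 1.45e-05) and 2.83 relative to that median. Hist2h2aa2 rose to 23.4 and 26.7 from 6.94 and 7.502, a change of 1.66 (SE 0.17, adjusted p = 6.11e-06). All 3 had every adult library above every P0, P4 and P7 library. Hist1h2ba rose to 5.41 and 7.17, and smaller increases of 0.65 to 0.95 were called for the H2B genes Hist1h2bl and Hist1h2bk and the pseudogene Hist2h3c2-ps. Hist2h3c2-ps entered the test through the adult libraries alone, where it was high, so its call only describes it. The linker histone gene Hist1h1c, at 22.7 and 20.4 at P0 and 27.9 and 33.97 in the adult, did not pass the test (change 0.50, adjusted p = 0.0602).

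The lower members were mostly H2A genes. Hist1h2ao was at 21.9 and 20.0 FPKM at P0, 22.3 and 23.1 at P4, 14.2 and 15.4 at P7 and 0.173 and 0.188 in the adult. It was highest at P4, where the change from P0 of 0.11 did not pass the test (adjusted p = 0.844), and it fell by 4.22 on the log2 scale from P0 to the adult (SE 0.15, adjusted p = 1.71e-09), as did Hist1h2ap. Hist3h2a, an H2A gene on 11:58768186-58770176, was at 14.7 and 10.5 at P0 and at 6.21 and 6.15 in the adult, a change of -0.91 (SE 0.20, adjusted p = 0.00226). The other H2A genes called lower, at about 1 or 2 FPKM at P0, were Hist1h2af (1.61 and 2.22 to 0.167 and 0.607) and Hist1h2ag (1.58 and 1.15 to 0.0494 and 0.232). Hist2h2be was also lower, by a change of -0.37 (adjusted p = 0.028), which is -0.01 relative to the median of all genes and turned to 0.06 with quantile normalization. Of the called members, 4 of the higher members (Hist1h2ba, Hist1h2bc, Hist1h4h and Hist2h2aa2) and 5 of the lower (Hist1h2ao, Hist1h2ap, Hist1h2af, Hist1h2ag and Hist3h2a) were called the same way whichever of the 4 libraries was left out.

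Members also differed between P7 and the adult. From P7, 8 members were higher and 3 lower, 52.4% of the 21, against 10.8% of all genes higher and 30% lower, 40.8% in all. Those shares of all genes were 9.65, 30 and 39.7% with a pseudocount of 0.1. Of the 21 members, 7 were under 1 FPKM in both P7 libraries. Hist2h3c2-ps, among the 8 higher, entered the test through the adult libraries alone. With a pseudocount of 0.1 the split was 3 and 3, without Hist1h4h. Leaving out 1 library lowered the number of called members, as it did over all genes. Hist1h2bc changed by 1.32 (adjusted p = 0.000566), Hist2h2aa2, at 11.6 and 10.3 at P7, by 1.12 (adjusted p = 0.000291) and Hist1h4h by 0.97 (adjusted p = 0.0162). Hist1h2ao and Hist1h2ap fell by 3.74 (adjusted p = 1.66e-08) and Hist1h2ag by 0.93 (adjusted p = 0.0117). Hist2h2be, lower at P7 than at P0, was higher in the adult than at P7 by 0.38 (adjusted p = 0.0339).

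Genes that work with the replication-dependent histones were mostly lower in the adult. All 26 tested S-phase genes were lower than at P0, with a median log2 change of -2.15 against -0.36 over all genes. Ccna2, the cyclin of S phase and G2, went from a mean of 32.7 to 0.40 FPKM, a change of -4.59, and Rrm2, which makes deoxynucleotides, changed by -3.83. Of 11 replication-independent histone genes 10 were lower, led by H1fx at -3.37, H2afx at -2.19 and H3f3b at -1.79. All 11 histone chaperone genes were lower, with Asf1b and Chaf1b both at -2.10. Of 13 tested factors for histone mRNA synthesis, processing and decay, 8 were lower, among them Slbp, from a mean of 12.1 to 4.48 FPKM (change -1.26, adjusted p = 0.000692), and Npat, at -0.98 (adjusted p = 0.000467). All 26 S-phase genes were also lower under both other scalings, whereas the chaperones called lower were 6 with median-of-ratios scaling and 8 with quantile normalization. The histone mRNA factors then gave 6 lower with either scaling, and 2 higher with the first.

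Markers of other cells moved over the same interval. Of 4 atrial genes 2 were lower than at P0 at P4, 3 at P7 and 3 in the adult, with summed levels of 355 and 1259 FPKM at P0 against 82.7 to 167 at P7 and 332 to 446 in the adult. At P7 4 of 5 epicardial genes were lower and 4 of 7 red blood cell genes higher. All 6 macrophage genes were higher in the adult, with summed levels of 139 to 186 FPKM against 28.4 to 37.4 at P0, as were 4 of 7 red blood cell genes, and 2 of 5 epicardial and 2 of 5 endothelial genes were lower. Of 5 fibroblast genes, 1 was higher and 4 lower, and all 6 proliferation genes were lower, at summed levels of 1.71 to 2.11 against 101 to 108. Their part in the histone changes was not tested.

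**Figure D3:**
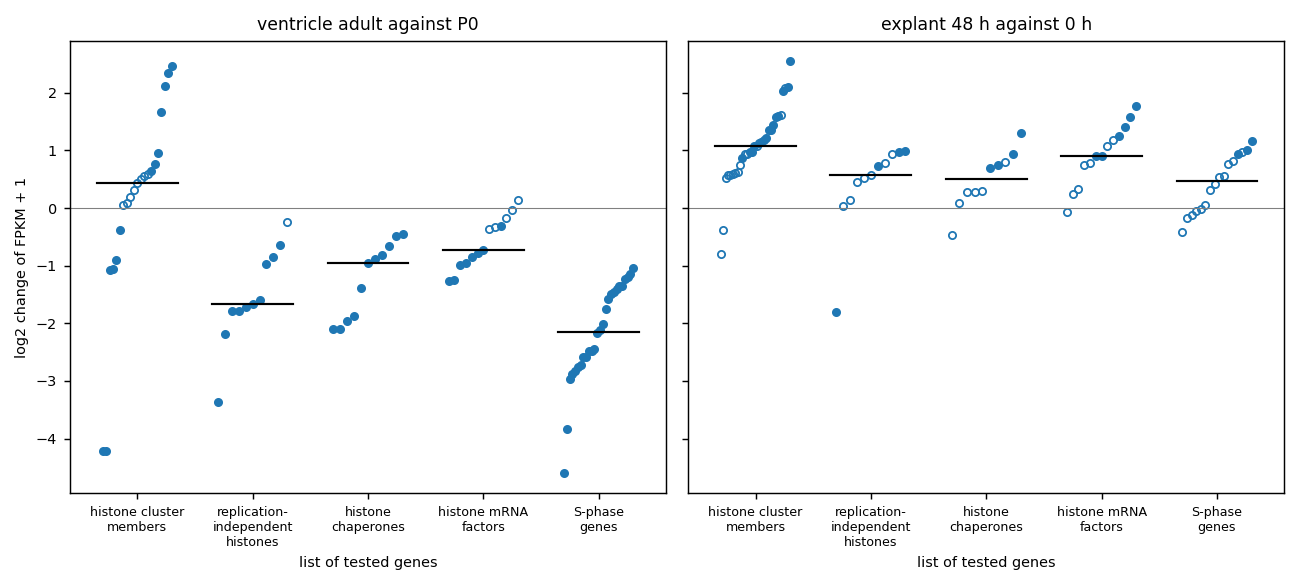
Log2(FPKM + 1) changes of the tested histone members and of the genes in 4 related lists, in adult against P0 ventricle and in explants at 48 h against 0 h; filled points were called (limma, adjusted p under 0.05) and the bar is the list's median. In the adult the S-phase genes lie below 0 throughout whereas the histone members spread to both sides, and in explants the called histone members lie above 0.

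Resection was compared with sham surgery in the same preparation and at the same day. At day 1 in ventricle 2 of 21 members were lower and none higher, a share of lower members near the 8.91% of all genes, of which 1.39% were higher. Of the 21, 12 were under 1 FPKM in both day 1 sham libraries, where log2(FPKM + 1) leaves little room to fall. This floor limits the comparison of shares. With a pseudocount of 0.1, 5 of the 21 were lower and 0 higher, against 8.48% of all genes lower and 1.38% higher. With median-of-ratios scaling 1 of 23 was lower against 3.84% of all genes, and with quantile normalization 1 of 21 against 2.85%. Hist2h2aa2 was at 2.89 and 3.59 FPKM in sham and at 1.27 and 0.654 after resection, a change of -1.12 (SE 0.17, adjusted p = 0.00309). Hist2h2be was at 6.15 and 5.53 in sham and 3.73 and 3.32 after resection, a change of -0.60 (SE 0.13, adjusted p = 0.0175). Neither overlapped between sham and resection, which held for 10 of the 21 members in all and for 50% of all tested genes. The 2 most abundant members did not pass the test: Hist1h2bc was at 10.3 and 12.4 against 16.7 and 9.55, and Hist1h1c at 29.7 and 24.9 against 25.3 and 36.4, both with a change of 0.15. When the 8 operated libraries were fitted alone, chosen after seeing the data, none of 10 tested members was called. In that fit 0.224% of all genes were higher and 1.34% lower.

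Of 26 S-phase genes at day 1, 8 were higher after resection and none lower, led by Cdc6 at 1.03, Ccna2 at 0.94 and Uhrf1 at 0.80, as were the replication-independent H2afz at 0.68 and the chaperone subunit Chaf1b at 0.64. Slbp and Npat changed by 0.13 and 0.22, with adjusted p = 0.774 and adjusted p = 0.434. With either other scaling 16 of the 26 S-phase genes were higher. Of 6 macrophage genes 3 were lower, with summed levels of 30.7 to 31.2 FPKM after resection against 66.4 to 97.1 in sham, and 3 of 5 neutrophil genes were lower. Their part in the fall of Hist2h2aa2 and Hist2h2be was not tested.

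At day 7 no member was called in ventricle, where 0.155% of all genes were higher and 0.00704% lower, 0.162% in all, and 3 of 21 had an unadjusted p under 0.05, near the 10.9% of all genes. Here too 12 of the 21 were under 1 FPKM in both sham libraries. The smallest p belonged to the H2A gene Hist1h2ag, at 0.0137 and 0.826 FPKM in sham and 2.44 and 1.35 after resection, a change of 1.06 (SE 0.26, adjusted p = 0.173). Hist1h2bc, at 8.86 and 10.4 against 14.1 and 16.2, and Hist1h1c, at 13.4 and 15.96 against 26.9 and 18.7, had changes of 0.61 and 0.59 without overlap (adjusted p = 0.344 and adjusted p = 0.338). Sham and resection did not overlap in 8 of the 21 members and in 41% of all tested genes. The effect of resection at day 7 was tested against that at day 1, and it differed for Hist2h2aa2, by 0.98 (SE 0.25, adjusted p = 0.0367), with 5.66% of all genes called in this direction and 5.91% in either. At day 7 Hist2h2aa2 was at 1.60 and 2.37 in sham and 1.64 and 1.72 after resection, a change of -0.14. The share of members, 1 of 21, was no larger than that of all genes. With a pseudocount of 0.1, 4 of 21 were called in this direction, against 4.99% of all genes. The difference between days for Hist2h2aa2 was lost with either other scaling, without the filter and with operated ventricle alone. It was also lost without day 1 sham replicate 2, either day 7 resection library or day 7 sham replicate 1.

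In isolated cardiomyocytes 10 members had enough signal to be tested. From P0 to P4 none was called, where 0.00765% of all genes were higher and 0% lower, and 2 had an unadjusted p under 0.05, against 2.63% of all genes. The smallest p was that of Hist2h2aa2, at 6.01, 6.31 and 4.69 FPKM at P0 and 3.13, 4.499 and 3.18 at P4, a change of -0.54 (SE 0.22, adjusted p = 1). Hist1h1c was at 16.5, 16.6 and 11.9 at P0 and 20.5, 20.8 and 21.9 at P4. Hist1h2ao, above 10 FPKM in ventricle at these ages, lay between 0.0137 and 0.374 in all 12 isolated libraries, while the S-phase genes summed to 145 to 254 FPKM in isolated P0 cells and 293 to 299 in P0 ventricle. Whether this gap for Hist1h2ao comes from the cells or from the library protocol cannot be told apart.

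After resection at day 7 no member was called in isolated cells either, against 1.08% of all genes higher and 0.0153% lower, 1.09% in all, and 5 of 10 had an unadjusted p under 0.05, against 12.9% of all genes. The change was positive in 9 of 10 and in 71.9% of all genes. The members' median change was 0.51 and that of all genes 0.13. Hist2h2aa2 was at 3.73, 3.14 and 2.43 FPKM in sham and 4.80, 6.87 and 9.63 after resection, a change of 0.95 (SE 0.22, adjusted p = 0.0684). Hist1h2bc was at 6.32, 6.03 and 10.9 in sham and 17.9, 10.9 and 16.8 after resection, a change of 0.90 (adjusted p = 0.0933), and Hist3h2a at 4.32, 3.86 and 4.00 against 5.48, 5.54 and 6.31, a change of 0.42 (adjusted p = 0.222). None of the 3 overlapped between the groups, although the highest sham and the lowest resection library for Hist1h2bc were both at 10.9. In all, 4 of the 10 members did not overlap, against 10.5% of all tested genes. Leaving out 1 library at a time gave 0 to 2 called members and 25 to 761 called genes in all, against 143 genes with every library kept.

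Lung genes moved with resection at day 7: all 5 were higher in isolated cells, with summed levels of 178 to 1160 FPKM against 0.435 to 2.70 in sham, and 3 of 5 in ventricle, with 95.9 to 215 against 2.57 to 25.9. All 4 atrial genes were also higher in isolated cells. The part of lung or atrial RNA in the histone values was not tested. The resection effect at day 7 in isolated cells was tested against that in ventricle, and the difference passed the test for none of 34 members, with 0.0404% of all genes called in each direction, 0.0809% in all. An unadjusted p under 0.05 was found for 2 members and for 7.44% of all genes. Of the 34 members, 26 were under 1 FPKM in every isolated day 7 sham library. The smallest p was that of Hist1h2ag (difference -1.25, SE 0.31, adjusted p = 0.137), and Hist2h2aa2 had a difference of 1.10 (SE 0.39, adjusted p = 0.433).

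**Figure D4:**
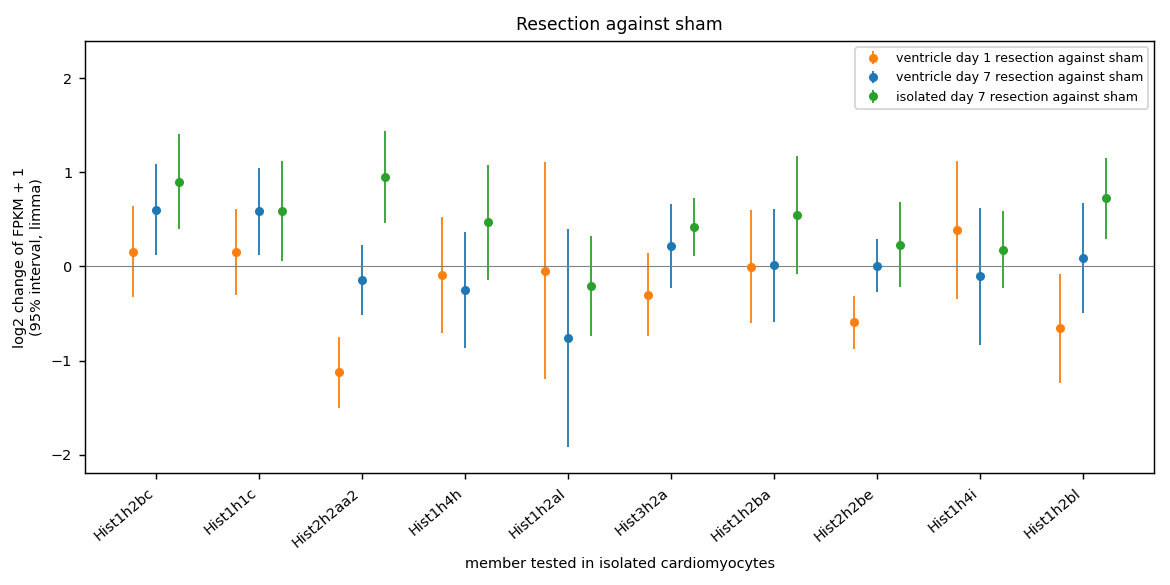
Log2(FPKM + 1) change between resection and sham with its 95% interval from limma, for the 10 members tested in isolated cells, in ventricle at day 1 and day 7 and in isolated cells at day 7. Hist2h2aa2 and Hist2h2be lie below 0 at day 1, and most isolated-cell changes lie above 0 without passing the adjusted test.

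The explants from 24 h on gave the highest summed histone levels of the 16 groups. Adult cardiomyocytes at 24, 48 and 72 h were compared with the same 2 libraries at 0 h, so the 3 comparisons are not independent. At 24 h 10 of 30 members (33.3%) were higher and none lower, against 15.5% of all genes higher and 2.6% lower. At 48 h 15 (50%) were higher and none lower, against 35.3 and 7.23% of all genes, 42.5% in either direction. At 72 h 13 (43.3%) were higher and none lower, against 46.9 and 9.1%, a share of higher members near that of all genes. The median change of the members was 0.98, 1.08 and 0.76, and that of all genes 0.37, 0.59 and 0.76. In 24, 24 and 19 of the 30 members the libraries did not overlap between the groups, against 63, 74.6 and 76.7% of all tested genes. Of the 30 members, 15 were under 1 FPKM in both 0 h libraries and entered the test through the later groups, where they were high, so these counts only describe the members tested. Without the filter on low values 0, 5 and 5 of 70 members were called at 24, 48 and 72 h, all higher. In that setting 1.94, 7.02 and 11.5% of all genes were higher.

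On the deposited scale most genes were higher than at 0 h, and the count of calls depends on the scaling used. With median-of-ratios scaling, which set the median of all genes between -0.04 and 0.03, the higher and lower members were 4 and 0 at 24 h, 5 and 1 at 48 h and 2 and 1 at 72 h. The split of all genes was then 4.71 and 7.93%, 11.2 and 16.8%, and 14.7 and 20.4%. Quantile normalization gave 3 and 0, 6 and 1, and 4 and 1 of the 30 members. All genes then split into 3.97 and 4.52%, 11.7 and 13.2%, and 16.9 and 16.8%. The replicate numbers paired the explant libraries, since same-numbered libraries of different times deviated together. With a replicate block 21 members were higher and 0 lower at 24 h, 22 and 1 at 48 h and 17 and 1 at 72 h, against 33.9, 51.0 and 58.6% of all genes higher. The lower member at 48 and 72 h was Hist2h2be in each of these settings.

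Among linker histone genes, Hist1h1c was at 42.9 and 17.0 FPKM at 0 h, 127 and 68.5 at 24 h, 145 and 88.5 at 48 h and 116 and 99.5 at 72 h. Its change was 1.75 at 24 h (SE 0.48, adjusted p = 0.0453) and 2.03 at 48 h (adjusted p = 0.0146), or 1.38 and 1.43 relative to the median of all genes. Every later library was above both 0 h libraries, and replicate 1 was above replicate 2 at each time. Hist1h1e, at 0.871 and 0.518 at 0 h and 5.33 and 2.34 at 48 h, was called at 48 and 72 h. Hist1h1d was called at 24 and 48 h and reached 1.03 FPKM at most.

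Among H2A genes, Hist2h2aa2 was at 29.4 and 10.6 FPKM at 0 h, 48.6 and 53.5 at 24 h, 63.3 and 48.0 at 48 h and 51.7 and 57.5 at 72 h, with changes of 1.47, 1.58 and 1.56 (adjusted p = 0.0489, adjusted p = 0.0208 and adjusted p = 0.0156). Hist1h2al was at 15.0 and 14.7 at 0 h and peaked at 37.8 and 33.9 at 48 h, a change of 1.21 (adjusted p = 0.00942). Its 72 h libraries, at 14.7 and 23.4, overlapped those at 0 h. Hist3h2a went from 4.96 and 4.79 to 12.4 and 8.93 at 48 h (change 0.97, adjusted p = 0.025) and was at 5.05 and 5.79 at 72 h. Hist1h2ao, abundant in the newborn ventricle, lay between 0.00239 and 0.502 in all 8 explant libraries.

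Of the 18 members called higher at some time, 9 were H2B genes. Hist1h2bc was at 60.3 and 19.1 FPKM at 0 h, 125 and 83.3 at 24 h, 183 and 122 at 48 h and 164 and 134 at 72 h. The 0 h libraries lay below all later ones but were far apart themselves, and the change passed the test at 24 h only with the block (1.55, adjusted p = 0.0716 without and adjusted p = 0.00589 with it), and without it at 48 h (2.10, SE 0.51, adjusted p = 0.0153) and 72 h (2.09, adjusted p = 0.011). Hist2h2bb, on 3:96073643-96082924, had close replicates at 0 h, 0.501 and 0.528, and was at 5.65 and 4.53 at 24 h, 9.32 and 6.58 at 48 h and 7.36 and 3.84 at 72 h. Its changes were 2.002, 2.55 and 2.07 (SE 0.31 each, adjusted p = 0.0122, adjusted p = 0.00195 and adjusted p = 0.00188), and it was called at all 3 times under both other scalings too. It entered the test through the later libraries, where it was high, so these calls only describe it. Hist1h2bl and Hist1h2bk, below or near 1 FPKM at 0 h, were at 3.89 and 4.07 and at 3.21 and 2.72 at 24 h. Hist2h2be, which was not called higher at any time, was at 4.52 and 1.94 at 0 h, 2.41 and 2.16 at 24 h, 1.53 and 1.11 at 48 h and 1.91 and 0.586 at 72 h (48 h change -0.80, adjusted p = 0.129, and adjusted p = 0.0305 with the replicate block). Hist1h2ba was not called at any time either: it was at 2.81 and 2.88 at 0 h, 8.34 and 10.7 at 24 h, 18.9 and 12.4 at 48 h and 0.354 and 15.4 at 72 h, where replicate 1 was far below replicate 2.

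Among H3 genes, Hist2h3b was listed at 0 and 0.338 FPKM at 0 h, reached 5.53 and 4.39 at 24 h and was at 3.47 and 1.74 at 48 h and 0.911 and 2.18 at 72 h. Its 24 h change of 2.36 was the largest of any called member at that time (SE 0.35, adjusted p = 0.0114). Hist2h3b entered the test through the later libraries, where it was high, so this rank and call only describe it. Hist2h3c1 was at 1.17 and 0.121 at 0 h, 6.17 and 1.60 at 24 h, 5.33 and 0.847 at 48 h and 3.25 and 0.913 at 72 h, with replicate 1 above replicate 2 throughout. It was not called at any time without the block (24 h change 1.47, adjusted p = 0.20) and was higher at all 3 times with it (adjusted p = 0.00438 at 24 h). The pseudogene Hist2h3c2-ps did the same, at 1.15 and 0.153, 6.14 and 1.70, 4.13 and 0.765, and 3.76 and 0.758 at the 4 times. Among H4 genes, Hist1h4h was at 20.5 and 19.3 at 0 h, 29.5 and 29.7 at 24 h, 45.0 and 35.6 at 48 h and 26.0 and 29.9 at 72 h, and passed the test at 48 h (change 0.97, adjusted p = 0.00975). Hist1h4i, at 2.51 and 2.27 at 0 h, 8.56 and 12.8 at 24 h and 8.22 and 10.8 at 48 h, was at 0.188 and 6.86 at 72 h, where replicate 1 had many genes listed at 0. It did not pass the test at any time, and with the block it was higher at 24 h (adjusted p = 0.0478) and 48 h (adjusted p = 0.0439). Hist1h4n was at 0.783 and 0.576 at 0 h and 0.780 and 2.92 at 24 h, with only replicate 2 higher.

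**Figure D5:**
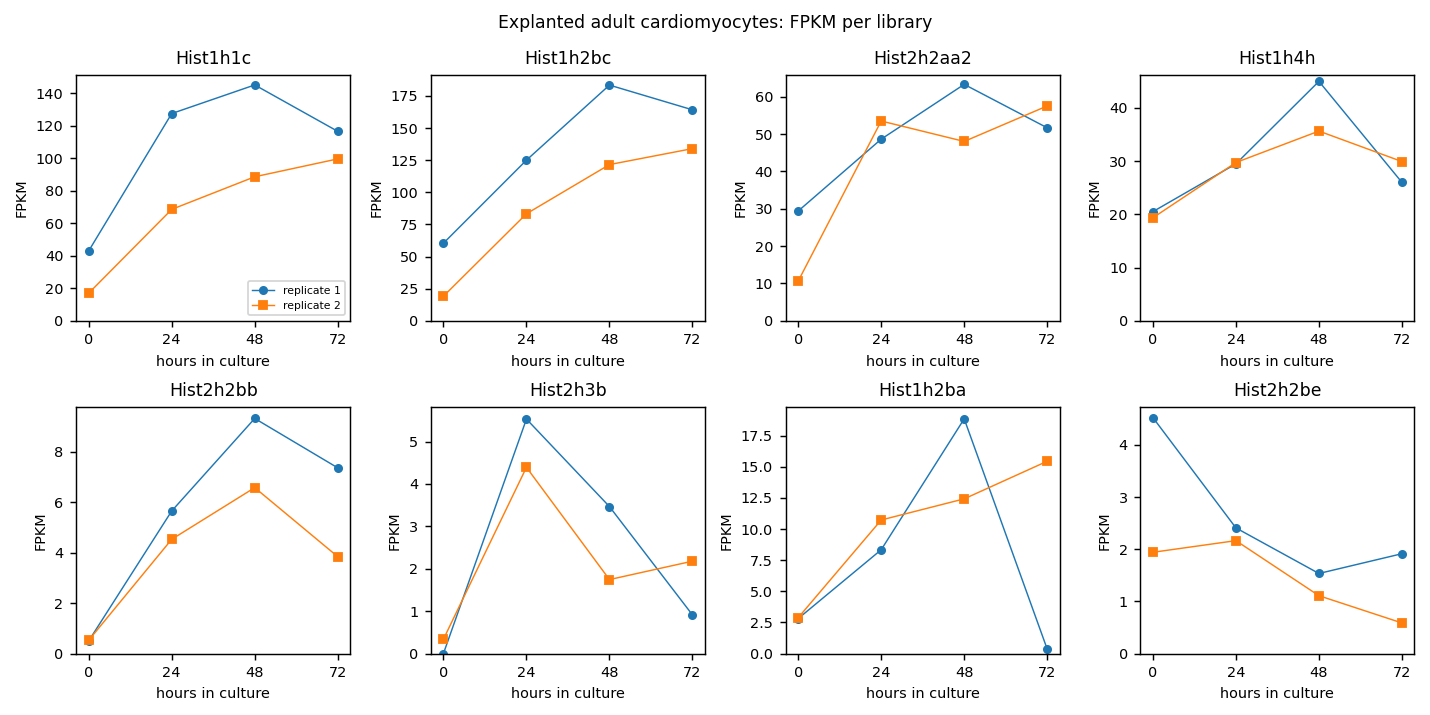
FPKM of 8 histone members against hours of explant culture, with a line for replicate 1 and a line for replicate 2. Hist1h2bc, Hist1h1c, Hist2h2aa2 and Hist2h2bb are above both 0 h values at every later time, whereas Hist2h2be is not.

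Called higher at all 3 times were 6 members, Hist1h1c, Hist1h2bk, Hist1h2bl, Hist2h2aa2, Hist2h2bb and Hist2h3b, and 18 were called higher at some time. The matching shares of all genes were not computed, so these 2 counts only describe the members. At the single times 15.5, 35.3 and 46.9% of all genes were higher. Hist1h2bk, Hist2h2bb and Hist2h3b were under 1 FPKM in both 0 h libraries. The calls at each time depended on single libraries. Leaving out any 1 of the 4 libraries compared lowered the number of called members at every time, as it did over all genes. At 24 h all member calls were lost without either 24 h library. Adult against P0 ventricle shares no library with the explants, and 17 members were tested in both. Of the 7 higher in the adult, Hist1h2bc, Hist1h2bk, Hist1h2bl, Hist1h4h and Hist2h2aa2 (71.4%) were also higher in explants at 48 h, no larger a share than the 12 of 17 (70.6%) higher at 48 h. These 5 were 41.7% of those 12. At 24 h 3 and at 72 h 4 of the 7 were higher. The 7 include Hist2h3c2-ps, which entered the ventricle test through the adult libraries alone.

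Of 16 S-phase genes tested in the explants, against 15.5, 35.3 and 46.9% of all genes higher at the 3 times, 0 were called at 24 h, 3 at 48 h (Prim1, Mcm7 and Ccne2) and 7 at 72 h, all higher. With median-of-ratios scaling 0, 0 and 2 were called higher, the same counts as with quantile normalization. Their summed level was 29.7 to 38.2 FPKM at 0 h and 61.2 to 82.4 at 72 h, against 293 to 299 in ventricle at P0. Proliferation genes summed to 3.73 to 5.88 at 72 h. Factors of histone mRNA were higher in 2 of 13 at 24 h (Cpsf2, of the cleavage complex, at 1.48 and Casp8ap2 at 1.17), 6 at 48 h and 9 at 72 h, where Eri1, a histone mRNA exonuclease, was at 1.88 and Lsm10 at 1.80. Npat was called at 48 h (0.91, adjusted p = 0.0481) and 72 h (1.05, adjusted p = 0.023), whereas Slbp had a change of 0.55 at 72 h (adjusted p = 0.265). Chaperones were higher in 1 of 10, 4 of 10 and 6 of 10, not far from those shares of all genes. Of the replication-independent histones 3 were higher and 1 lower at 48 h and at 72 h, the lower being the centromeric Cenpa at -1.80 and -3.01. These counts also depend on the scale: with median-of-ratios scaling 1, 2 and 3 of the 13 histone mRNA factors were higher at 24, 48 and 72 h, and 0 of the replication-independent histones.

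The cell markers changed over the same hours. Summed cardiomyocyte markers were 24505 to 27535 FPKM at 0 h and 2869 to 3180 at 72 h, with 6 of 7 genes lower, and all 3 tested macrophage genes were higher, at 83.3 to 137 FPKM summed over the list of 6 against 1.49 to 2.28. At 24 h the macrophage genes summed to 3.04 to 6.20, with none called, and 2 of 7 cardiomyocyte and 2 of 3 smooth muscle and pericyte genes were lower. The part of other cells in the histone levels was not tested.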

How the data were processed

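Expression was measured in 36 mouse heart libraries, and the values deposited by the authors are FPKM, in 1 table with a column per library. It lists 36128 gene models, which carry 32750 symbols. Per the submitters' processing notes, reads were processed on mouse genome build mm9 with Cufflinks 1.2.1 and Cuffdiff, and with TopHat 1.3.2 and Bowtie 0.12.7. No counts were used, and depth is unknown.

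Tests used log2(FPKM + 1), which understates changes of low genes. Genes that reached 1 FPKM in 2 or more libraries of a fit were tested with limma 3.58.1 under R 4.3.3, on group means, in separate fits for 12 isolated, 16 ventricle and 8 explant libraries and over all 36 for the isolated against ventricle difference. Two-sided p-values were Benjamini-Hochberg adjusted over all genes tested, and a gene was called under 0.05. The method was tested on simulated data. The members and lists were chosen with earlier results of these data known. Per-library values are given for the 3 highest members of each class and for called members with the largest changes, at most 3 per direction, or the member with the smallest p. Hist2h2ac, Hist1h2af, Hist1h2ag, Hist1h2bl and Hist1h2bk were singled out after their values were seen, as were some values of members in comparisons where they were not called.

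Replicate numbers were taken to pair libraries where all same-numbered pairs of different groups had deviations correlated above 0.1. This held for 12 of 12 explant pairs (0.38 to 0.62) and not for 18 isolated pairs (6 above 0.1) or 56 ventricle pairs (4 above 0.1). Alternatives were leaving out each library, a replicate block, scaling by the median of ratios, quantile normalization, dropping the filter on low values and a pseudocount of 0.1; fits of unoperated or operated ventricle alone were added after seeing the data. Sequences came from GENCODE M21 transcripts and RefSeq promoters on GRCm38.p6. Python 3.11.15 with NumPy 2.4.6 and Matplotlib 3.10.9 made the figures.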

Additional observations from a re-analysis of the deposited data

Results flagged for a closer look

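The effect of resection on Hist2h2aa2 in ventricle differed between day 7 and day 1, a call that depends on the processing. The difference of the log2 changes was 0.98 (limma, adjusted p = 0.0367), with a change of -1.12 at day 1 and of -0.14 at day 7 (n = 2 libraries in each of the 4 groups). A test of the difference between the 2 effects singled it out. The call was lost with median-of-ratios scaling, with quantile normalization, without the filter on low values, with operated ventricle alone and on leaving out any 1 of 4 of the 8 libraries, and 5.66% of all genes were called in this direction.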

How the results depend on the processing

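Counts of called members moved with the settings. With a pseudocount of 0.1 they were 1 for ventricle P4 against P0, 6 for adult against P7, 5 for day 1 resection and 4 for the difference between the day 7 and day 1 effects. These were of 21 members, and the shares of all genes called were 0.845, 39.7, 9.86 and 5.19%. Without a filter the counts, of 70 members, were 0 for P4, 0 for that difference, and 0, 5 and 5 for explants at 24, 48 and 72 h. Of all genes 0.479, 1.87, 2.34, 8.68 and 14.1% were then called. Median-of-ratios scaling gave 1 for day 1, 0 for the difference, and 4, 6 and 3 for the explants, against 7.09, 2.25, 12.6, 28 and 35.2% of all genes. Quantile normalization gave 1, 0, and 3, 7 and 5, against 5.68, 1.46, 8.5, 24.8 and 33.7% of all genes. A replicate block gave 1 for P4 and 21 and 23 for explants at 24 and 48 h, against 1.3, 40.4 and 62.2% of all genes. It moved no other count by over 1.5 times. Unoperated ventricle fitted alone gave 9 of 20 for P7, against 19.7% of all genes. Operated ventricle alone gave 0 of 10 for day 1 and 0 of 10 for the difference, against 1.56 and 0.425% of all genes. Leaving out 1 library at a time gave 0 to 1 for P4, 2 to 4 for P7, 10 to 13 for adult against P0, 6 to 8 for adult against P7, 1 to 3 for day 1, 0 to 1 for day 7, 0 to 4 for the difference between days, 0 to 0 for isolated P4, 0 to 2 for isolated day 7, 0 to 2, 2 to 12 and 6 to 11 for the explants, and 0 to 1 for isolated against ventricle. Directions turned for Hist1h1c in the isolated against ventricle difference with median-of-ratios scaling (-0.0307) and for Hist2h2be in the adult with quantile normalization (0.0636). With libraries left out, they turned for Hist1h1c at P7 (-0.18 to 0.21), at day 1 (-0.10 to 0.41) and in the isolated against ventricle difference (-0.25 to 0.31), for Hist1h2bc at day 1 (-0.22 to 0.53) and for Hist2h2aa2 at day 7 (-0.33 to 0.0429). Where a group was left with 1 library, that library is assumed to vary like the other groups. Over all values of named members under these alternatives, 686 kept their direction and side of the threshold, 235 lost and 17 gained significance, and 13 turned. Groups of 2 or 3 libraries, unknown depth and near-identical gene copies limit what can be detected, and the causes of these shifts were not tested.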
